A study of Mus musculus with 9 samples.

Results

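The genes described here encode voltage-gated sodium, potassium and calcium channels, the remaining potassium channels, and the auxiliary subunits that assemble with them. They were taken from the GENCODE release M1 annotation of the mm9 mouse genome as the protein-coding genes whose symbol starts with *Kcn*, *Cacn*, or *Scn* followed by a digit. This gave 137 gene entries of the 22367 protein-coding genes on the nuclear chromosomes, with 134 different symbols, since *Kcnb2*, *Kcnh8* and *Scn8a* are each annotated as more than 1 entry. The rule used names only and no measured value.

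BAP1 binding was mapped by ChIP-Seq in Ba/F3, a mouse cell line of the B cell precursor type that grows with IL-3. The list of binding sites (peaks) rests on 2 of the 9 samples of the series, namely wild type cells immunoprecipitated with an anti-BAP1 antibody (52.8 μg) and cells with stable expression of murine BAP1 carrying a triple FLAG tag, immunoprecipitated with the anti-FLAG M2 antibody (5 μg). The tagged cells were kept under puromycin, each kind of immunoprecipitation is 1 sample, and the peak names in the single deposited list refer to both, so no value below has a replicate error. H2AK119ub was also precipitated in wild type cells and in the CRISPR-Cas9 *Bap1* knockout lines KO3 and KO4 (3 samples), which are not analysed here, and the remaining 4 samples are input DNA. The list gives positions only, with no expression by which the labelled cell type could be checked against its markers.

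Ion channels are membrane proteins that open and close to let selected ions pass. A pore-forming subunit carries the ions, and auxiliary subunits alter its gating or its transport to the membrane. Most of these genes are known from neurons, muscle and heart, while lymphocytes are known to use a few of them, above all the potassium channels Kv1.3, encoded by *Kcna3*, and KCa3.1, encoded by *Kcnn4*, to hold the membrane potential that drives calcium entry. BAP1 is a deubiquitinase that removes ubiquitin from histone H2A (the mark H2AK119ub) and is bound at many promoters.

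A gene was counted as bound when the middle of a 200 bp peak lay within 1 kb of any of its annotated transcription start sites (TSSs). By this measure 11 of the 137 channel genes were bound, a share of 8.03% (95% Wilson interval 4.54 to 13.8). Over all protein-coding genes the share was 39.6% (8850 of 22367 genes, interval 38.9 to 40.2). The intervals cover counting error only, and the comparison describes 1 list without a test. The bound genes were the pore-forming *Kcna3*, *Kcnq5*, *Kcnn4*, *Kcnk5* and *Cacna1a*, and the auxiliary *Kcnab2*, *Kcnab3*, *Cacnb1*, *Cacng2*, *Cacng3* and *Cacng7*. In 11 of these 11 genes the TSS nearest to the peak was the gene's own, whether all annotated genes or only protein-coding ones were compared. Among all bound protein-coding genes this held for 88.7%, the others being bound through a peak that is nearer to a neighbor. Both comparisons keep the noncoding transcripts of protein-coding genes. *Cacna1a* counts only through the TSS of such a transcript, 471 bp from a peak, with its nearest protein-coding TSS 223871 bp away.

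The sequences under the peaks show how unlike these bound sites are. They are given for 9 of the 11 genes, while those of *Cacng2* and *Kcnq5* are not printed. Where a printed peak covers a TSS, the part upstream of the TSS is given, and for *Cacng7*, *Cacng3* and *Cacna1a*, whose printed peaks cover none, the whole peak is given. All are read 5′ to 3′ on the strand of the gene from the NCBIM37 (mm9) genome, and capitals mark matches to the motifs described further below.
Kcnn4, chr7:25155143-25155281, plus strand: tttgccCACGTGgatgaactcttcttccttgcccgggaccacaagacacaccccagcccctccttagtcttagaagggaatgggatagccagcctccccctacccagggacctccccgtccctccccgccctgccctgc
Kcna3, chr3:106838900-106839079, plus strand: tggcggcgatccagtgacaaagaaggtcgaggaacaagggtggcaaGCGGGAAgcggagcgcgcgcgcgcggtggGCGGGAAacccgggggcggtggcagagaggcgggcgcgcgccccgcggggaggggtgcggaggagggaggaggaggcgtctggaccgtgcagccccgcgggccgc
Kcnk5, chr14:21001005-21001185, minus strand: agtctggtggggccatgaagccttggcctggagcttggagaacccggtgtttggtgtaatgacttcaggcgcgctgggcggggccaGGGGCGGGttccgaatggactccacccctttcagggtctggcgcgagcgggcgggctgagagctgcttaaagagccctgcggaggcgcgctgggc
Kcnab2, internal promoter, chr4:151822950-151823040, minus strand: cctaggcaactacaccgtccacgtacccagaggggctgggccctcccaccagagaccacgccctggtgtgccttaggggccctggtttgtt
Kcnab3, chr11:69139607-69139759, plus strand: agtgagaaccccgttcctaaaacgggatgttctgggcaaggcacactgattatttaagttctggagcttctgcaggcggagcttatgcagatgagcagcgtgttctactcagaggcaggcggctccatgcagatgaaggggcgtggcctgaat
Cacnb1, chr11:97883949-97884127, minus strand: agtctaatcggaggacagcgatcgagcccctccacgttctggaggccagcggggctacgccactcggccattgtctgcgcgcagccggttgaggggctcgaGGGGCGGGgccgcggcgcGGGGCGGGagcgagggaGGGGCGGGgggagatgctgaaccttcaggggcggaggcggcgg
Cacng7, chr7:3332247-3332446, plus strand: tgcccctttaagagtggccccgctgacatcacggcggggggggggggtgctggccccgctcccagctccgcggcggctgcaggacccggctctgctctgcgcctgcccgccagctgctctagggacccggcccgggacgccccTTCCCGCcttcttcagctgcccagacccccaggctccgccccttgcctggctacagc
Cacng3, chr7:129814423-129814622, plus strand: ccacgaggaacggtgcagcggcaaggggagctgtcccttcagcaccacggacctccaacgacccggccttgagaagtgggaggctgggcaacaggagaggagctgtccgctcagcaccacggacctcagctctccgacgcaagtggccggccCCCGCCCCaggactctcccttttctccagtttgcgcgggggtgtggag
Cacna1a, near the end of the gene, chr8:87163262-87163461, plus strand: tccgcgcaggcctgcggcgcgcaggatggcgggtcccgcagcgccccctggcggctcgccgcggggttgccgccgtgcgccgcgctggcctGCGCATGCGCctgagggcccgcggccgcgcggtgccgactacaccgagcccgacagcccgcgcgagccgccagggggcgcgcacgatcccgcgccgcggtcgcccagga

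The stretches range from a CpG-poor to a CpG-rich composition. The *Kcna3* stretch holds 26 CpG dinucleotides in 180 bases and the *Cacnb1* stretch 22 in 179. The *Kcnn4* stretch holds 4 in 139 bases, and the *Kcnab2* stretch 3 in 91. The *Cacna1a* peak is the richest of those printed, with 39 in 200 bases and a GC content of 82.5%.

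Potassium channels that open with depolarization are tetramers of subunits encoded by the *Kcna* to *Kcnd*, *Kcnq* and *Kcnh* families, with *Kcnf*, *Kcng*, *Kcns* and *Kcnv* encoding subunits that act mainly as partners. Of these 42 genes, 2 were bound (4.76%, interval 1.32 to 15.8). *Kcna3* lies on chromosome 3 from 106839080 to 106841047 and has 1 annotated TSS, and its single peak has its middle 81 bp upstream. The 7 other *Kcna* genes had none within 1 kb. *Kcnq5*, whose product contributes to the M current in neurons, spans chromosome 1 from 21388484 to 21952023 on the minus strand. Its peak lies 101 bp downstream of a protein-coding TSS, in an annotated coding exon, and 462 bp inside the outermost annotated start. The 9 *Kcnh* entries, of the ether-a-go-go family, and the 4 *Kcnc* genes were unbound, and the nearest peak to a *Kcnh* gene lay 3340 bp from a TSS of *Kcnh2*.

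Calcium- or sodium-activated potassium channels open on a rise of the ion inside the cell. Of 8 genes of these families, among them *Kcnu1* by its relation to *Kcnma1*, 1 was bound (12.5%, interval 2.24 to 47.1). This was *Kcnn4*, on chromosome 7 from 25155282 to 25170228, whose peak lies 40 bp upstream of the start of the gene, with the next annotated TSS, that of *Lypd5*, 20999 bp away. Its CpG ratio is 0.274, the lowest among the bound channel genes. The large conductance channel gene *Kcnma1* had its nearest peak 243900 bp from a TSS.

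Inward rectifiers (*Kcnj*) set the resting potential, and 0 of 15 were bound (interval 0 to 20.4). *Kcnj2*, which encodes Kir2.1, had no peak nearer than 942879 bp. The leak channels with tandem pore domains (*Kcnk*) had 1 bound gene of 14 (7.14%, interval 1.27 to 31.5). In *Kcnk5*, which encodes TASK-2 and runs on the minus strand of chromosome 14 from 20959280 to 21001004, the middle of the peak was 81 bp upstream of the only annotated TSS. *Kcnk6* had its nearest peak 5696 bp away, at the promoter of *Yif1b*, where it lies 111 bp from the TSS.

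Auxiliary subunits of potassium channels were bound in 2 of 17 genes (11.8%, interval 3.29 to 34.3), and both encode cytoplasmic beta subunits of the Kv1 family. *Kcnab2* lies on the minus strand of chromosome 4 from 151764851 to 151851980, has 12 annotated TSSs and carried peaks at 2 of its promoters, 28.7 kb apart. The outer peak covers a TSS 5 bp from its middle. The nearest TSS of *Nphp4*, on the opposite strand, is 593 bp from the middle of this peak, so the peak is nearer to *Kcnab2*. An annotated TSS of *Nphp4* also lies within the span of *Kcnab2*. The inner peak lies 29040 bp downstream of the gene's outermost start and 9 bp from a protein-coding TSS, with no other gene's TSS nearer than 26997 bp. *Kcnab3*, on chromosome 11 from 69139760 to 69146544, had 1 peak, 54 bp upstream of its TSS, and the next TSS was that of *Trappc1* at 1766 bp. The other *Kcnab* gene, *Kcnab1*, had its nearest peak at 38865 bp. No peak lay within 1 kb of the 4 *Kcnip*, the 4 *Kcnmb* or the 5 *Kcne* genes.

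Voltage-gated sodium channels carry the upstroke of the action potential. Of the 11 entries for pore-forming subunits 0 were bound (interval 0 to 25.9), and of the 4 for beta subunits 0. Their median distance to the nearest peak was 139 kb and 104 kb. The nearest sodium channel gene was *Scn4a*, with a peak 1679 bp from a TSS.

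**Figure D1:**
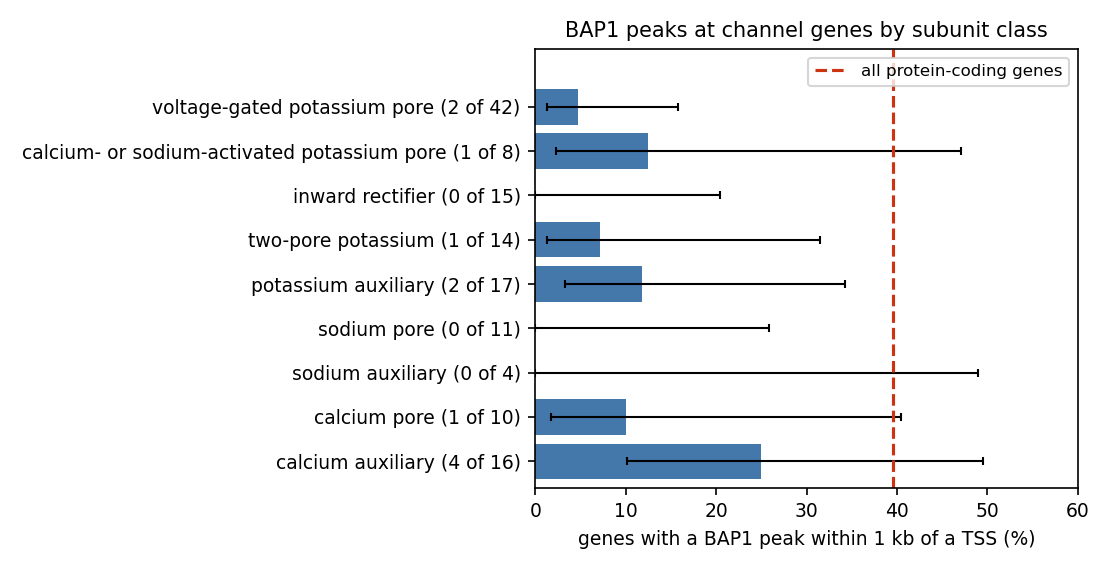
Share of channel genes with a BAP1 peak within 1 kb of a TSS, in percent, by subunit class, with the number bound of the number of genes in brackets. Bars are shares, lines are 95% Wilson intervals for counting error, and the dashed line is the share over all protein-coding genes, 39.6%. The bar of each of the 9 classes ends left of the dashed line, and the longest is the calcium auxiliary class with 4 of 16 genes. The intervals of the calcium auxiliary, calcium pore, sodium auxiliary and ion-activated potassium classes reach past the dashed line.

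Voltage-gated calcium channels had 5 bound genes of 26 (19.2%, interval 8.51 to 37.9), against 6 of 96 genes with *Kcn* symbols (6.25%, interval 2.90 to 13.0). The intervals of both overlap. Among the auxiliary subunits 4 of 16 were bound (interval 10.2 to 49.5%). *Cacnb1*, known as the beta subunit of the skeletal muscle channel, lies on the minus strand of chromosome 11 from 97862822 to 97884348 and had 2 peaks with middles 475 bp apart. One is 79 bp upstream of a protein-coding TSS and the other is 154 bp upstream of the TSS of a noncoding transcript. The TSS of the noncoding gene *Gm11629*, on the opposite strand, lies 242 and 233 bp from them, and the next coding TSS, that of *Rpl19*, is 3997 and 3522 bp away.

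Of the 8 *Cacng* genes 3 were bound. These encode small membrane proteins, of which stargazin (*Cacng2*) and its relatives *Cacng3* and *Cacng7* are known for binding AMPA receptors in neurons. The *Cacng2* peak lies 92 bp downstream of the only annotated TSS, in an untranslated exon, and the TSS of the noncoding transcript *RP23-385C21.2* on the other strand is 230 bp away. The peaks at *Cacng7* and *Cacng3* lie 709 and 736 bp upstream of the only annotated TSS and cover none. No other gene starts within 28575 bp of the *Cacng7* peak or within 58780 bp of the *Cacng3* peak. *Cacnb4*, *Cacnb2* and *Cacnb3*, and the 4 *Cacna2d* genes, were unbound, with *Cacnb4* at 69159 bp.

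Among the 10 *Cacna1* genes, which encode the pores, *Cacna1a* was bound (10.0%, interval 1.79 to 40.4). This gene, for the P/Q-type channel, covers chromosome 8 from 86912339 to 87164145. Its 2 peaks share 70 bases and lie 471 and 601 bp from the TSS of a short noncoding transcript, inside coding sequence, 784 and 654 bp before the annotated end of the gene. The nearest TSS of a protein-coding transcript of *Cacna1a* is 223871 bp from the nearer of these peaks, and no peak was listed at the promoter itself. *Cacna1e*, for the R-type channel, had its nearest peak at 127087 bp.

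Over all classes, 5 of 100 pore-forming genes (5.00%, interval 2.15 to 11.2) and 6 of 37 auxiliary genes (16.2%, interval 7.65 to 31.1) were bound, with overlapping intervals. The members just inside the 1 kb limit were *Cacna1a* (471 bp), *Cacng7* (709 bp) and *Cacng3* (736 bp). Just outside were *Cacna1f* (1471 bp), *Scn4a* (1679 bp) and *Cacna2d2* (1803 bp). In 3 of the 11 genes more than 1 peak lay within 1 kb of a TSS (27.3%), and among all bound protein-coding genes the share was 25.5%.

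In total 14 peaks marked the 11 genes. Taking the nearest peak of each gene, the middle was upstream of the TSS in 8 of 11 genes (72.7%), and in 74.9% of all bound protein-coding genes. The median distance was 81.0 bp, against 46.0 bp over all bound protein-coding genes. The 3 genes *Cacna1a*, *Cacng7* and *Cacng3* were further than 400 bp from their TSS (27.3%), where 3.81% of all bound protein-coding genes lay. The other 8 genes had their nearest peak between 5 and 101 bp from a TSS. The limit of 400 bp was not part of the plan and falls in the gap of these genes between 101 and 471 bp, so both shares are descriptive only.

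**Figure D2:**
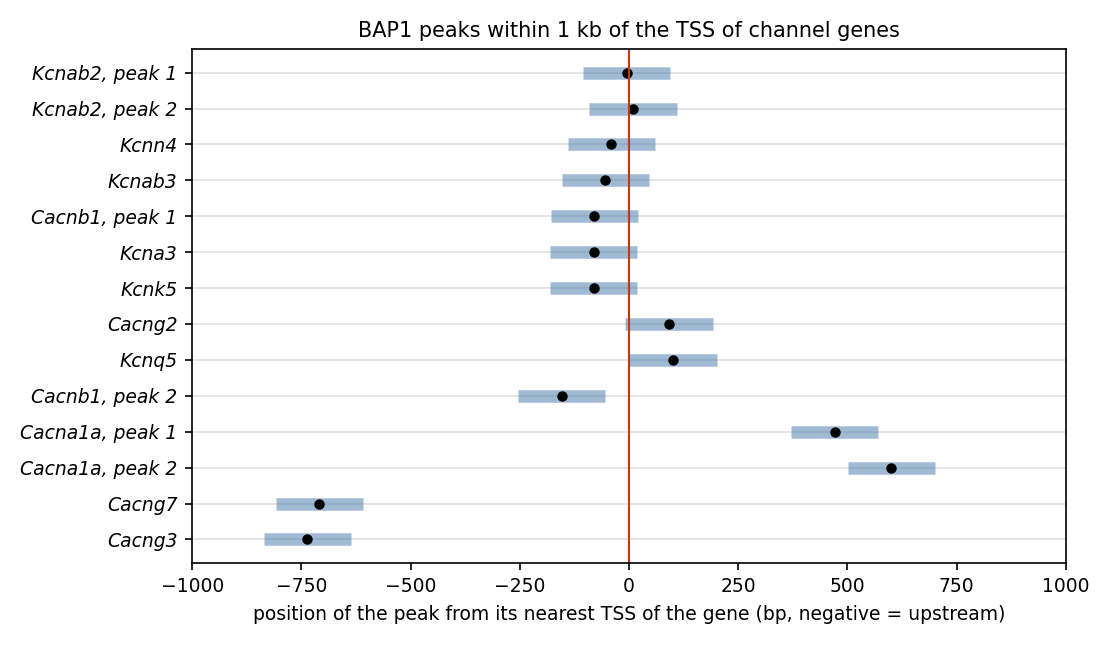
Position of each of the 14 peaks relative to the nearest TSS of the channel gene, in bp along the gene, with upstream to the left. The points are the middles, the bars the 200 bp peaks and the red line the TSS, and each peak of a gene is set against its own nearest TSS. The peaks of 8 genes crowd between -154 and 101 bp, and those of *Cacna1a*, *Cacng7* and *Cacng3* stand apart.

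Promoters rich in CpG dinucleotides were bound more often over the whole list, so the members were set against genes of like promoter composition. For each TSS the CpG ratio, the observed number of CpG dinucleotides over that expected from base content, was computed in the flanking 500 bp to both sides, and the highest value of a gene was kept. Its median was 0.581 over the channel genes and 0.602 over all protein-coding genes. In 5 strata of equal size over all protein-coding genes, from the lowest to the highest ratio, 0.850, 7.04, 45.1, 68.4 and 76.4% of all genes were bound. Of the channel genes, 0 of 12, 2 of 45, 1 of 27, 5 of 32 and 3 of 21 were bound in the same strata. In the fourth stratum this was 15.6% (interval 6.86 to 31.8) and in the highest 14.3% (interval 4.98 to 34.6). In the 3 upper strata the interval of the channel genes lay below that of all genes, and in the 2 lower strata the intervals overlapped. Whether a channel gene is expressed in Ba/F3 cells was not analysed here, and its part in these shares was not tested.

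**Figure D3:**
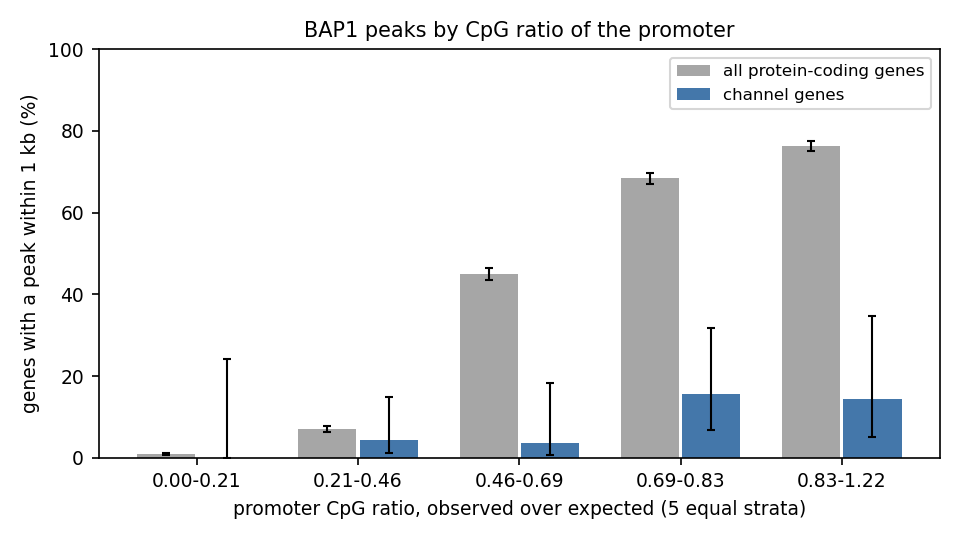
Share of genes with a peak within 1 kb of a TSS, in percent, by CpG ratio of the promoter in 5 strata of equal size, for all protein-coding genes (gray) and channel genes (blue), with 95% Wilson intervals. The gray bars climb from 0.850 to 76.4%, whereas the blue bars reach at most 15.6%.

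The bound channel genes had CpG ratios between 0.274 and 0.982 with a median of 0.757, and the unbound ones between 0.119 and 1.04 with a median of 0.532. The 3 bound members of the highest stratum were *Cacna1a*, *Kcnq5* and *Kcna3*, and the 2 of the second stratum were *Kcnn4* and *Cacng3*. The ratio of *Cacna1a* is the highest over its 11 TSSs, which need not be that of the TSS near its peaks. Among the unbound members with the highest ratios were *Kcnmb4* (1.04), an auxiliary subunit of the large conductance channel, and *Cacna1d* (1.04), the pore of an L-type calcium channel. Others were *Kcng3* (0.957), *Cacna2d1* (0.953), *Cacna1i* (0.951), *Cacng4* (0.930), *Kcnj12* (0.922) and *Cacna1b* (0.922). Their nearest peaks lay between 11606 bp (*Cacna1d*) and 1422029 bp (*Cacna2d1*), the latter being the largest distance of any member.

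The motifs searched on both strands of the peaks were ETS (CCGGAAGT), NRF1 (GCATGCGC), YY1 (AAGATGGCG), CRE (TGACGTCA), SP/KLF (GGGGCGGG), ZNF143 (ACTACAATT), E-box (CACGTG), E2F (TTCCCGC), NFY (CCAAT) and the REST element RE1. All 14 peaks lie within 1 kb of a TSS, so the shares beside them are over the 10073 such peaks of the list. An ETS match was in 0 of the 14 peaks, beside 9.50%, and in 7.85% of all 13164 peaks. SP/KLF was in 3 peaks, at *Cacnb1*, *Cacng3* and *Kcnk5* (21.4%, beside 33.5%), and E2F in 2, at *Cacng7* and *Kcna3* (14.3%, beside 7.13%). In the sequences above, the *Cacnb1* stretch holds 3 SP/KLF matches and the *Kcna3* stretch 2 E2F matches. NFY was in 2 peaks, at *Kcnab2* and *Cacna1a* (beside 30.0%), with the matches in the outer *Kcnab2* peak and the second *Cacna1a* peak, neither of which is printed. NRF1 was in 1, at *Cacna1a* (beside 5.80%), where overlapping matches lie on both strands, and the E-box in 1, at *Kcnn4* (beside 8.06%). YY1, CRE, ZNF143 and RE1 had an exact match in 0 of 14 peaks, beside 3.71, 3.35, 0.477 and 0.0794%. Only exact matches were counted for every motif, so sites that differ by a letter were missed. No motif contains another, but SP/KLF and E2F share the letters GCGGG, and with 14 peaks the shares are coarse.

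REST represses many neuronal genes through RE1, searched as CAGCACC and GGACAG with 2 bases between. Within 500 bp of a TSS it was found in 1 of the 137 channel genes (0.730%), the sodium-activated channel gene *Kcnt1*, which was unbound. Of all protein-coding genes, 39 (0.174%) held it. The printed *Cacng3* peak holds CAGCACC, 2 bases and GGACCT, which differs from the element in its last letters and was not counted.

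The median distance from the nearest own TSS to a peak was 60.6 kb, against 16.6 kb over all protein-coding genes, and 75 of the 137 genes had no peak within 50 kb (54.7%, interval 46.4 to 62.8), beside 37.2% of all protein-coding genes. Among genes without a gene-proximal peak, these shares were 59.5% (interval 50.8 to 67.7) and 61.5%, with overlapping intervals. The nearest peak of a further 51 genes (37.2%, interval 29.6 to 45.6) was more than 1 kb but at most 50 kb away, against 23.2% of all protein-coding genes. Bound genes count in both totals and cannot fall in this range. Among genes without a gene-proximal peak alone, the shares were 40.5% (51 of 126 channel genes, interval 32.3 to 49.2) and 38.5% (interval 37.6 to 39.3). These intervals overlap.

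**Figure D4:**
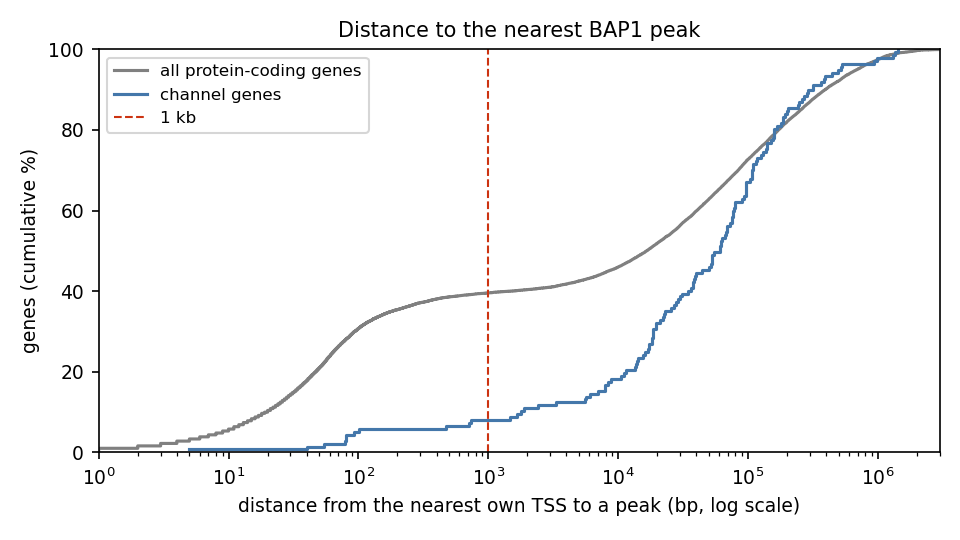
Cumulative share of genes, in percent, by distance in bp (log scale) from the nearest own TSS to the middle of a peak, for all protein-coding genes (gray) and channel genes (blue), with the 1 kb limit dashed. At 1 kb the curves stand at 39.6 and 8.03%, and at 300 kb they stand at 87.0 and 89.8%.

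Of the 51 genes, 30 had as nearest peak one within 1 kb of the TSS of another gene (58.8%, interval 45.2 to 71.2), and for all protein-coding genes in this range the share was 70.1%. Named after their values were seen, *Kcnu1* and *Kcnrg* lie 1900 and 7970 bp from a peak, which is at the TSS of *Ash2l* (29 bp) and *Trim13* (0 bp). The peaks nearest to *Cacna1d* and *Cacna1i* belong in the same way to *Dcp1a* (15 bp) and *Rps19bp1* (46 bp). In 14 of the 51 genes the own TSS was the nearest to the peak (27.5%, interval 17.1 to 40.9), beside 14.8% of all protein-coding genes in this range. This was the case for *Cacna1f*, *Scn4a* and *Cacna2d2* named above.

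Inside the gene body and more than 1 kb from every annotated TSS, a peak was found in 11 channel genes (8.03%, interval 4.54 to 13.8), beside 4.28% of all protein-coding genes. Of these 11 genes 0 also had a gene-proximal peak (interval 0 to 25.9), beside 47.5% of the 958 protein-coding genes with such a body peak and 8.03% of all channel genes. They include *Cacna1f*, *Cacng8*, *Kcnh2*, *Kcnh6*, *Kcnip1*, *Kcnj1*, *Kcnk18*, *Kcnq1*, *Scn3a* and *Scn4a*, each with 1 peak. For some the nearest TSS belongs to another gene, namely *Cacng6* for the *Cacng8* peak (13610 bp), *Dcaf7* for *Kcnh6* (4593 bp) and *Kcnmb1* for *Kcnip1* (30983 bp). The peak of *Cacna1f*, the retinal L-type channel, lies in a coding exon 25.7 kb from the start of the gene, and the other 10 peaks lie in introns. In *Kcnq1*, the cardiac channel gene, the peak is 189 kb into the gene and 147924 bp from the nearest TSS of the annotation used. Its number in the deposited list is 7102, and of the peaks numbered 6583 to 9873, 94.9% lay within 1 kb of a TSS. The other body peaks are numbered from 9970 up, and of the peaks numbered 9874 to 13164, 13.5% did. Whether another annotation has a TSS nearer to the *Kcnq1* peak was not tested. Channel genes are long, with a median of 37.1 kb against 15.4 kb over all protein-coding genes. Per length of gene body away from TSSs, the channel genes had 0.728 ± 0.219 peaks per Mb (Poisson error, 11 peaks in 15.1 Mb) and all protein-coding genes 1.21 ± 0.0362.

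The shares differed between groups of ion channels. Of 11 genes for store-operated entry and calcium release from intracellular stores, 8 were bound (72.7%, interval 43.4 to 90.3). These were *Orai1*, *Orai2* and *Orai3*, the pores of store-operated calcium entry, *Stim1* and *Stim2*, the sensors of the store, and *Itpr1*, *Itpr2* and *Itpr3*, the IP3 receptors, with peaks between 3 bp (*Orai2*) and 141 bp (*Stim2*) from a TSS. The ryanodine receptor genes *Ryr1*, *Ryr2* and *Ryr3* were unbound, at 30471, 151283 and 147391 bp. Of 72 genes listed by symbol as other cation, proton and chloride channels 21 were bound (29.2%, interval 19.9 to 40.5). Whether each encodes a channel was not checked. For example, *Trpc4ap* shares the symbol start but encodes no channel, and bound genes with *Clcn* symbols are counted whatever their function. The count also includes the ATP-gated *P2rx* genes, with 3 of 7 bound. The bound genes of this list include *Hvcn1*, the proton channel of B cells and phagocytes (116 bp), and *Trpm7* (99 bp), whereas the 4 *Hcn* genes were unbound. Of 60 genes for channels gated by neurotransmitters (acetylcholine, GABA, glycine, glutamate and serotonin) 3 were bound (5.00%, interval 1.71 to 13.7), namely *Chrnb1*, *Glra1* and *Grik5*. The interval of the channel genes, 4.54 to 13.8%, overlaps that of the transmitter-gated genes and lies below those of both other lists.

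**Figure D5:**
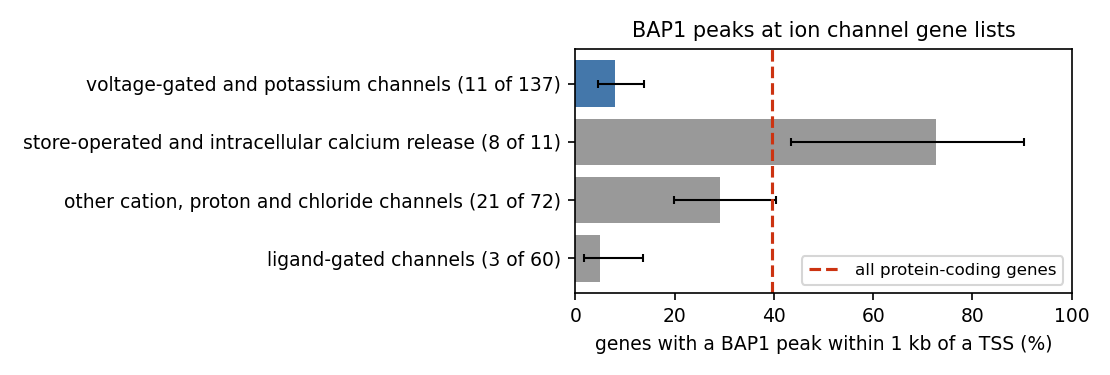
Share of genes with a BAP1 peak within 1 kb of a TSS, in percent, for the voltage-gated and potassium channel genes (blue) and for 3 other lists of ion channel genes (gray), with the number bound in brackets, 95% Wilson intervals and the share over all protein-coding genes (39.6%) dashed. The store-operated and intracellular release list stands at 72.7% and the ligand-gated list, which holds transmitter-gated channels only, at 5.00%.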

How the data were processed

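Per the labels and the methods, the authors used Bowtie 1.0.0 for mapping to mm9 and MACS 1.4.2 for peak calling, with input DNA as control. The deposited list holds 13164 intervals for the anti-BAP1 and anti-FLAG samples together. Its values are positions, start and end in bp, and each interval is 200 bp wide with no score. Neither the threshold of the caller nor how both samples were joined is given in the sources used here, and the effect of another threshold was not tested. Depth is unknown, and 0 columns could not be matched.

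The middle of a peak (start plus 100) was compared with all TSSs of GENCODE M1 (NCBIM37, the same build as mm9). The 37273 genes on the nuclear chromosomes include 22367 protein-coding ones. No gene or peak was filtered out. Shares carry 95% Wilson intervals, and no test was run, since the list has no replicates. CpG ratios and motifs were read from the genome. The members, classes, lists and motifs were chosen with earlier results of these data known. Named are all bound members, the 3 nearest on either side of the limit, up to 10 with a body peak, the 10 unbound members with the highest CpG ratio, 8 preset genes (*Kcna3*, *Kcnn4*, *Kcnk5*, *Kcnk6*, *Kcnab2*, *Kcnj2*, *Cacna1e* and *Cacnb4*), and genes nearest to a named peak. Genes named as the nearest of a family, as unbound relatives or in the other lists, and *Scn4a* among those with a body peak, were named outside this rule, and some genes that the rule would name are not reported here. Distances, motif search and counting were tested on simulated data against known answers and bedtools 2.31.1. Software was Python 3.11.15, numpy 2.4.6, pandas 2.3.3, scipy 1.17.1 and pysam 0.24.0.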

Additional observations from a re-analysis of the deposited data

How the results depend on the processing

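The count of 11 bound channel genes was 9 with a window of 500 bp, where *Cacng3* and *Cacng7* were lost, 15 at 2 kb and 17 at 5 kb. At these windows 38.6, 40.4 and 42.5% of all protein-coding genes were bound. It was 10 with the longest transcript or with protein-coding transcripts only, both without *Cacna1a*, and 11 with peak edges, with merged peaks, with each peak given to its nearest TSS only, and with 1 entry per symbol, the last chosen after seeing the data. Bound pore-forming genes numbered 8 at 2 kb and 10 at 5 kb instead of 5. The 51 genes with a nearest peak within 50 kb became 33 at 20 kb and 81 at 100 kb, ranges that nest by construction. Of all protein-coding genes, 12.3 and 33.1% fell in these ranges. Among genes without a gene-proximal peak, the shares at 20 kb were 26.2% (interval 19.3 to 34.5) of channel genes and 20.3% of all. At 100 kb they were 64.3% (interval 55.6 to 72.1) and 54.8% (interval 53.9 to 55.6), further apart than at 50 kb. The 11 genes with a body peak became 6 when it had to be over 5 kb from every TSS (4.38%, interval 2.02 to 9.23), beside 2.58% of all protein-coding genes. In the highest CpG stratum, 1 of 23 channel genes was bound with the ratio taken over 250 bp on either side, instead of 3 of 21. With the ratio at the longest transcript only, 2 of 21 were bound. The cause of these changes was not tested. The limits are that strength of binding, depth and spread between samples are unknown from positions alone, and that small classes, such as 4 sodium beta subunit genes, leave wide intervals. No paired analysis was possible because the list merges both samples.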
